A study of Danio rerio with 4 samples.

Results

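The genes described here encode small nucleolar RNAs (snoRNAs) and small Cajal body RNAs (scaRNAs). They are the 221 of 32468 genes in the deposited expression table whose name starts with snord, snora, snor or scarna, in either case. By name, 120 are box C/D genes, 86 are box H/ACA genes, 13 are scaRNA genes and 2 (snoR38 and snoR74) show no class. Many genes carry the same name, so that the 221 genes hold 103 names. RNA-seq was performed on whole zebrafish embryos at sphere stage, a blastula stage. Wild-type embryos were of the AB strain (2 samples). MZ*eomesa* embryos (2 samples, called mutant embryos here) came from in vitro fertilisation with *eomesa* fh105 homozygous parents, so that they lacked both the maternal and the zygotic supply of the T-box transcription factor Eomesa. The study's methods mention embryos from mutant mothers only as a substitute in some experiments, without saying which. Only poly(A) RNA entered the libraries, which were read from a single end over 100 bases.

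Box C/D snoRNAs guide ribose methylation of ribosomal RNA by fibrillarin, and box H/ACA snoRNAs guide the conversion of uridine to pseudouridine by dyskerin. scaRNAs do the same for the small nuclear RNAs of the spliceosome, in Cajal bodies. Most vertebrate snoRNAs lie in introns of other genes, are trimmed from the spliced-out intron and end without a poly(A) tail, so that a mature snoRNA has no tail to be captured by.

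Each gene has 1 value per group in FPKM (fragments per kilobase of transcript, scaled to the number of mapped reads) that joins both of its samples. The values therefore carry no standard deviation and no test was possible. The number of reads behind a value is unknown, and the values describe these libraries only. A fold of 2 was used to count genes that differed between the groups, and is set against the share of all genes past the same fold. In RNA from whole embryos, fewer cells of a type and less RNA per cell cannot be told apart.

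The labels were checked first. *eomesa* was listed at 62.6 FPKM in wild-type and 1.52 FPKM in mutant embryos, a log2 ratio of -5.36. Of 11 names searched for genes of the blastula, 10 were found, at 8.71 to 1105 FPKM in wild-type and 5.79 to 1083 FPKM in mutant embryos. Genes of differentiated tissue (13 genes under 10 names) all lay at or below 0.728 FPKM in wild-type embryos, with a highest value of 3.96 FPKM (*elavl3*) in mutant embryos. The median log2 ratio of all 25476 genes above 0 in both groups was 0.03.

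Most snoRNA genes were listed at exactly 0, and the share that was not differed between the classes. In all, 84 of the 221 genes (38.0%) were above 0 in at least one group, where 84.3% of all genes in the table were. For genes of other short RNAs, which were chosen by name, the share was 21.2% (798 of 3763), but types differed widely. It was 4.94% for the 1964 5S_rRNA genes and 16.1% for the 706 U6 genes. It was 60.8% for the 51 U3 genes and 74.3% for the 382 U1 genes. The 21.2% thus depends on the mix of types, and does not show that snoRNA genes were above 0 more often than other short RNA genes. Among box H/ACA genes 69 of 86 (80.2%) were above 0, among scaRNA genes 7 of 13 (53.8%), and among box C/D genes 8 of 120 (6.67%). Neither snoR38 nor snoR74 was above 0. The near absence of box C/D genes held in each group separately, since 113 of them were at 0 in wild-type and 112 in mutant embryos. The corresponding counts for box H/ACA genes were 26 and 22. The authors' status column marked 119 of the 221 genes as having too few alignments to test, 118 of which were at 0 in both groups. A further 22 were marked as having low data, and 19 of these were at 0, so that a 0 in this table cannot be read as a count of 0.

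**Figure D1:**
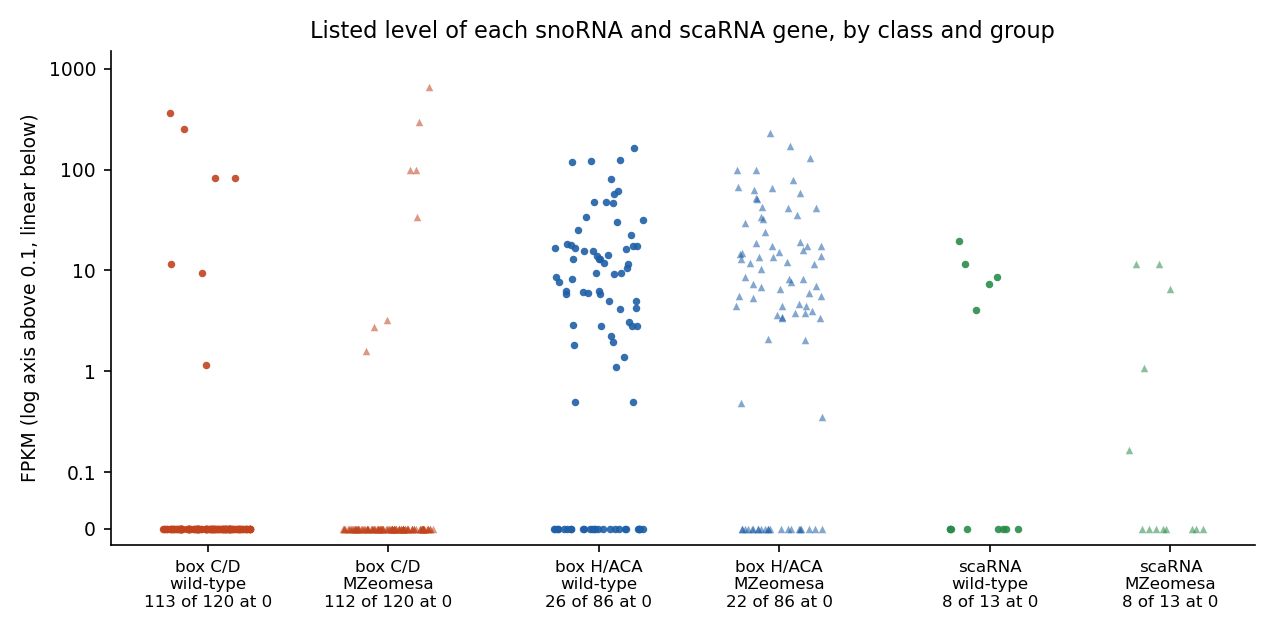
Listed FPKM (log axis above 0.1, linear below) of every box C/D, box H/ACA and scaRNA gene in wild-type (circles) and MZ*eomesa* (triangles) embryos, 1 point per gene. The 8 box C/D genes above 0 stand over a row of points at 0 that holds 112 or more of 120 genes, whereas the box H/ACA genes spread from under 1 up to 164 FPKM (wild-type) and 230 FPKM (mutant).

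The highest levels of the whole family were those of 2 box C/D genes, SNORD22 and SNORD89. The median mean FPKM (the mean of both groups) of the 8 box C/D genes above 0 was 56.7, against 9.42 for the 69 box H/ACA genes and 7.54 for the 7 scaRNA genes above 0. The ratio of the first to the second was 6.02, and it rests on 8 genes, 4 of which are copies of SNORD15. Without SNORD15 it was 19.2, and with genes at 0 included it was 0, since the median box C/D gene was listed at 0. Summed over genes, the box H/ACA class, with more genes above 0, led all the same. Box H/ACA genes added up to 1396 FPKM in wild-type and 1826 FPKM in mutant embryos, and box C/D genes to 804 and 1186 FPKM. SNORD22 alone held 366 and 654 FPKM of the box C/D sums.

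SNORD22 had the highest level of all 221 genes. SNORD22 (U22) acts in vertebrates in the processing of the small ribosomal subunit RNA and is not known as a methylation guide. It was listed at 366 FPKM in wild-type and 654 FPKM in mutant embryos, a log2 ratio of 0.84, and its mean ranked at place 100 among all genes. In Zv9 it lies on chromosome 7 from 26212939 to 26213065, a span of 127 bases that it shares with no other gene. Among such unshared genes above 0, the median FPKM was 1.43 up to 110 bases (112 genes) and 4.06 over 110 and up to 120 bases (172 genes). It was 10.6 over 120 and up to 130 bases, for 9 genes that include SNORD22 itself. It was 9.40 over 130 and up to 140 bases, and 0.97 over 140 and up to 160 bases. The median thus did not fall evenly with length. Whether a short span raises a listed level was not tested, so the rank is one of listed FPKM only. In mammals SNORD22, SNORD29, SNORD30 and SNORD31 are cut from introns of the same non-coding host gene, SNHG1. In the zebrafish table a similar row surrounds SNORD22. SNORD29 (26212273 to 26212337) and SNORD30 (26212501 to 26212570) precede it. 2 SNORD31 copies (26213230 to 26213299 and 26213439 to 26213512) follow, and a further copy lies upstream (26210101 to 26210171). These 5 neighbours, with spans of 65 to 74 bases, were all at 0 in both groups, as was the adjoining snR56, with 65 bases. No host gene for this row has a line of its own in the table within 5000 bases, and the next gene with a level was *ARL2*, starting at 26214310, at 16.3 and 14.6 FPKM.

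The other box C/D genes with a level lay in spans that also hold a protein-coding gene. For such genes the table gives the joint span of all overlapping genes rather than the snoRNA's own ends. SNORD89 was listed at 251 FPKM in wild-type and 294 FPKM in mutant embryos, a log2 ratio of 0.23, and shares its span (chromosome 2, 32223429 to 32231413) with *abcf2a*, an ABC-family ATPase gene at 162 and 194 FPKM. 2 of the 3 SNORD94 copies had the same values as each other, 82.6 FPKM in wild-type and 98.3 FPKM in mutant embryos (log2 ratio 0.25). They lie with the *rrm2* genes of chromosome 20 (29518377 to 29524126) and chromosome 19 (49363393 to 49368575), which encode the small subunit of ribonucleotide reductase. The authors' option divided reads that map to several places among those places, so that the levels of single copies may depend on that division. Whether this made the 2 copies equal was not tested. Equal values also occurred between names, as a SNORA57 copy and a SNORA62 copy were both at 5.004 FPKM in wild-type embryos. The third SNORD94 copy, on chromosome 24, was at 0.

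SNORD15, which guides methylation of the large ribosomal subunit RNA, was present as 4 copies in the span of *rps3* on chromosome 18 (47351163 to 47362807). In human its copies lie in introns of the same ribosomal protein gene. The copies read 11.6, 9.54, 1.15 and 0 FPKM in wild-type and, in the same order, 34.2, 1.58, 3.23 and 2.73 FPKM in mutant embryos. 3 of the 4 copies were thus higher in mutant embryos and the other, at a log2 ratio of -2.59, was the furthest below 0 of all 65 genes with a ratio. Summed, SNORD15 went from 22.3 to 41.7 FPKM, a log2 ratio of 0.90.

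The length of a gene also went with whether it was above 0. Among the 25414 genes of the table that are alone in their span, the shortest one with a level above 0 spanned 107 bases, just above the read length of 100 bases. All 543 lone genes with shorter spans were at 0, and 25 of them were snoRNA or scaRNA genes. Of the 23 box C/D genes alone in their span, 22 spanned 46 to 94 bases and were at 0, and SNORD22, with 127 bases, was the exception on both counts. The 8 lone box H/ACA genes spanned 131 to 138 bases, and 5 of them were above 0. Among all lone genes the share above 0 did not go up evenly with length. It was 18.2% of 944 genes over 110 and up to 120 bases, 7.83% of 115 genes over 120 and up to 130 bases, the range of SNORD22, and 23.5% of 68 genes over 130 and up to 140 bases. It was then 66.1% up to 160 bases, 78.2% up to 200 bases and 68.8% up to 300 bases. Whether reads of this length could be counted for shorter genes was not tested, as the reads were not used here.

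**Figure D2:**
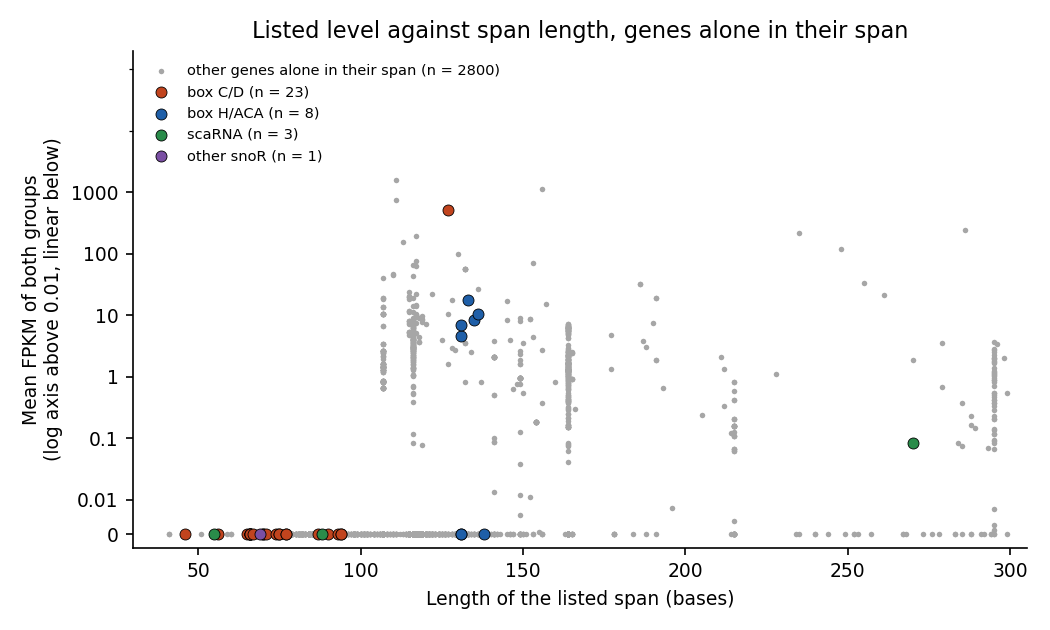
Mean FPKM of both groups (log axis above 0.01, linear below) against the length of the listed span in bases, for genes of up to 300 bases that share their span with no other gene. All genes under 107 bases sit on the line at 0, including 22 box C/D genes, and SNORD22 is the single box C/D point above it.

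Where both classes sat in the same span, the same division was seen. In 6 such spans there were 17 box C/D genes, all at 0, and 9 box H/ACA genes, all above 0. The span of *dkc1*, which encodes dyskerin itself, held 4 copies of SNORD83 at 0 beside SNORA36, at 9.48 and 15.4 FPKM, and SNORA56, at 11.9 and 5.57 FPKM. The span of *nop56*, a core protein gene of the box C/D particle, held 1 box C/D gene at 0 and SNORA42 at 80.3 FPKM in wild-type and 62.0 FPKM in mutant embryos. In the span of *rps8a* 2 box C/D genes were at 0 while SNORA47 was at 117 and 169 FPKM. All of these protein-coding genes were above 0 in both groups.

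Families of box C/D copies were mostly listed at 0 throughout. Of the 30 box C/D names borne by more than 1 gene, 28 were at 0 in every copy, against 2 of 24 such box H/ACA names. SNORD27 was the most extreme, with 17 copies on 14 chromosomes or scaffolds at 0, followed by SNORD52 with 8, SNORD111 with 7 and SNORD12 with 5 copies. The copies of SNORD14, a U14 homologue needed for processing of the small subunit RNA in yeast, were also at 0. A span on chromosome 8 (17129286 to 17132858) holds SNORD47, SNORD74, SNORD75, SNORD77 and SNORD79, which in human are all hosted by the non-coding gene GAS5, and each of them was at 0.

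Box H/ACA genes were measured more evenly, with 34 at a mean of 10 FPKM or more and 31 between 1 and 10 FPKM. The highest was SNORA26, at 164 FPKM in wild-type and 230 FPKM in mutant embryos, a log2 ratio of 0.49. Its neighbour SNORA27 shares the span (chromosome 20, 23068856 to 23070801) but was lower in mutant embryos, at 124 and 65.8 FPKM, a log2 ratio of -0.91. The gene they share it with, *si:ch73-249k16.1*, was at 12.0 and 15.5 FPKM. The snoRNA genes of this span thus exceeded their neighbour by several fold and differed from each other in direction.

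The next highest box H/ACA genes were SNORA47 (log2 ratio 0.53), SNORA31, SNORA35, SNORA65, SNORA42, SNORA16, SNORA32 and a copy of SNORA63. SNORA31 lies in a span with *tpt1* on chromosome 1, and its main copy was at 123 FPKM in wild-type and 97.8 FPKM in mutant embryos (log2 ratio -0.33). The other SNORA31 copy was at 7.69 FPKM in wild-type and at 0 in mutant embryos. SNORA35 lies with *rpl4* and *map2k1* on chromosome 18 and was more than 2-fold higher in mutant embryos, at 60.6 and 129 FPKM (log2 ratio 1.09). Both copies of SNORA16, which share a span with the CTP synthase gene *ctpsa*, were higher in mutant embryos, from 57.6 to 78.3 FPKM and from 18.1 to 32.7 FPKM. SNORA32 went from 33.7 to 67.7 FPKM (log2 ratio 1.01). Most of these genes were higher in mutant embryos, and SNORA42 (log2 ratio -0.37) and SNORA31 were lower.

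Across the family, ratios leaned to the MZ*eomesa* side. Of the 65 genes above 0 in both groups, 44 were higher in mutant embryos and 21 lower, with a median log2 ratio of 0.36 against 0.03 for all genes. The median was 0.38 for the 55 box H/ACA genes, with an interquartile range of -0.21 to 1.04. It was 0.25 for the 7 box C/D genes and -0.00 for the 3 scaRNA genes. The summed FPKM of all 221 genes was 2251 in wild-type and 3043 in mutant embryos, a log2 ratio of 0.44. Of these sums, SNORD22 alone held 366 and 654 FPKM. Left out of the sums were snoRNA genes with names outside the rule. They include 3 copies of snoU6-53 at 245 to 399 FPKM in wild-type embryos, all lower in mutant embryos. Others, such as snoU6-77, were higher. The lean of the sum thus holds for the genes of the rule only.

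Many ratios were wide. At least 2-fold higher in mutant embryos were 18 of the 65 genes (27.7%), namely 16 box H/ACA and 2 box C/D genes, where 12.3% of all genes were. At least 2-fold lower were 9 genes (13.8%), 8 of them box H/ACA, where 8.92% of all genes were. The gap from the background was wider among genes at a mean of 10 FPKM or more. There 11 of 40 genes (27.5%) were at least 2-fold higher, beside 2.55% of all genes at that level, and 4 (10%) were at least 2-fold lower, beside 1.5% of all genes.

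Width of this kind was shared by other short genes. Among the 548 other short RNA genes above 0 in both groups, 15.5% were at least 2-fold higher and 27.4% at least 2-fold lower in mutant embryos. For the 52 of these with a mean of 10 FPKM or more, the shares were 15.4% and 9.62%. Many of the 548 are copies of a few names, and 266 of them were U1 genes. Several U6 copies held equal values (10.9 FPKM in wild-type and 9.96 FPKM in mutant embryos), so these genes are not independent. The median size of the log2 ratio, sign ignored, was 0.79 for the 40 snoRNA and scaRNA genes at that level and 0.75 for the other short RNA genes, but 0.22 for all genes and 0.13 for ribosomal protein genes. Among the 44 lone genes outside the family with spans of 107 to 300 bases and a mean of 10 FPKM or more, that size was 0.62, and among the 6022 with spans over 1000 bases it was 0.21. Wide ratios were thus also seen in short genes outside the family. The median log2 ratio of the other short RNA genes above 0 in both groups was -0.14, but types differed, and the 24 5S_rRNA genes among them had a median of 0.71. Whether such differences exceed the replicate spread could not be tested.

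The largest ratios in favour of mutant embryos, among those listed at 1 FPKM or more in each group, belonged to box H/ACA genes in 4 of 5 cases. A SNORA30 copy in the span of *KIF22* on chromosome 12, a kinesin gene, was at 2.85 FPKM in wild-type and 13.6 FPKM in mutant embryos (log2 ratio 2.25). A SNORA63 copy in the span of *rplp0* was at 12.9 and 58.99 FPKM (2.19). The lone SNORA62 gene on chromosome 3 (6727639 to 6727774) was at 5.004 and 16.0 FPKM (1.68). A SNORA21 copy with *rpl23*, the gene that also hosts SNORA21 in human, was at 2.83 and 8.65 FPKM (1.61). The remaining gene was the SNORD15 copy at 11.6 and 34.2 FPKM (1.55).

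At the other end stood SNORD15 and box H/ACA genes again. After the SNORD15 copy came a SNORA9 copy on chromosome 19, at 31.6 FPKM in wild-type and 8.19 FPKM in mutant embryos (log2 ratio -1.95). SNORA50, alone on chromosome 3 from 56348580 to 56348714, was at 12.9 and 3.64 FPKM (-1.83). The lone SNORA57 copy on chromosome 5 (72043492 to 72043624) was at 25.3 and 10.3 FPKM (-1.30), and a SNORA62 copy with *rpsa* was at 16.3 and 7.61 FPKM (-1.10). SNORA9, SNORA57, SNORA62 and SNORD15 each also had a copy that was higher in mutant embryos. The second SNORA9 copy, in the same span, was at 6.31 and 14.5 FPKM (1.20).

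Being listed at 0 in a single group was common as well. Of the 84 genes above 0, 19 (22.6%) were at 0 in the other group, 7 in MZ*eomesa* and 12 in wild-type embryos, where 6.94% of all genes were and 31.3% of the other short RNA genes. The level in the group that was not at 0 had a median of 3.97 FPKM and a highest value of 19.5 FPKM, and in 15 of the 19 it was under 10 FPKM. The 4 above that were SCARNA8 (19.5 FPKM in wild-type and 0 in mutant embryos), a SNORA63 copy (0 and 17.4 FPKM), a SNORA30 copy (0 and 11.9 FPKM) and SNORA38 (0 and 11.6 FPKM), which shares a span with *crebbpa* on chromosome 22. No fold was computed for any of these genes singly, since the level that a 0 allows is unknown without counts. Sums over copies or classes take such a 0 as 0, among them those of SNORA63 and of the scaRNA genes.

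Same-named copies often disagreed with each other. Among the 23 names with at least 2 copies above 0, copies went in both directions in 9. SNORA63, with 5 copies in the span of *rplp0* on chromosome 5 (2043309 to 2072826), read 46.2, 13.95, 12.9, 4.26 and 0 FPKM in wild-type and, in the same order, 52.3, 17.4, 58.99, 12.2 and 17.4 FPKM in mutant embryos. All 5 copies were higher in mutant embryos, the 4 above 0 in both groups by log2 ratios from 0.18 to 2.19, and the sums were 77.4 and 158 FPKM (log2 ratio 1.03). SNORA62, which in the table as in human lies with *rpsa*, had sums of 49.9 and 71.3 FPKM, with 3 copies higher and 1 lower. SNORA65, in the span of *rpl12*, had a copy at 47.2 and 99.9 FPKM, a copy at 17.5 and 8.21 FPKM and a copy at 0.

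Elsewhere the copies cancelled out. SNORA73 (U17), which acts in cleavage of the ribosomal RNA precursor and does not guide a modification there, had 4 copies in the span of *rps7* on chromosome 20 (30398260 to 30403129). They read 12.9, 8.72, 6.24 and 3.12 FPKM in wild-type and 13.1, 7.42, 6.01 and 6.85 FPKM in mutant embryos. Only the lowest copy differed by 2-fold, and the sums were close, at 30.9 and 33.4 FPKM (log2 ratio 0.11). The 3 SNORA57 copies summed to 41.9 and 39.1 FPKM (log2 ratio -0.10), although single copies had ratios of -1.30 and 1.47. SNORA3 was a different case, since its 4 lone copies on chromosome 19 held 2 at 0, 1 at 9.34 and 4.43 FPKM, and 1 at 9.37 FPKM in wild-type and 0 in mutant embryos.

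Summing the copies narrowed the counts but not the lean. Of 39 names above 0 in both groups, 8 (20.5%) were at least 2-fold higher and 3 (7.69%) at least 2-fold lower in mutant embryos, where 12.3% and 8.92% of all genes were. The median log2 ratio over names was 0.49, and 26 of 39 were above 0. Copies in the same span may be near-identical in sequence, in which case the values of single copies depend on how shared reads were divided. The sequences were not analysed here.

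**Figure D3:**
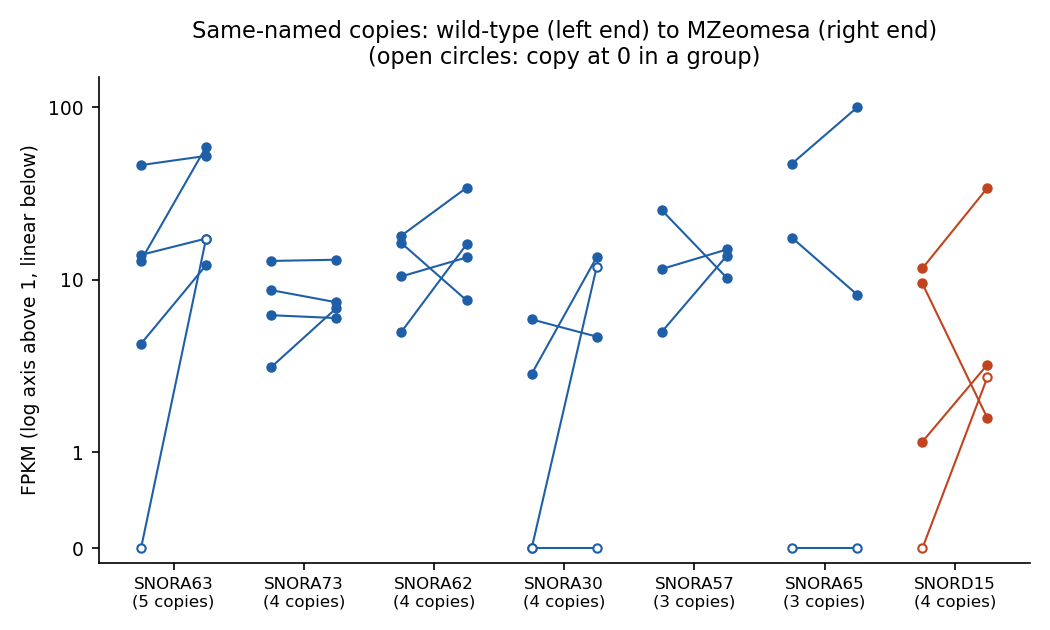
FPKM (log axis above 1, linear below) of each copy of 7 snoRNA names, joined from wild-type (left end) to MZ*eomesa* (right end), with open circles for copies at 0 in a group. The SNORA63 lines all rise from left to right, whereas those of SNORA57, SNORA62, SNORA65, SNORA30 and SNORD15 run in both directions.

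The scaRNA genes were few and low. SCARNA6, which is present as 2 copies with the autophagy gene *atg16l1* on chromosome 15, was at 11.5 FPKM in both groups for one copy and at 8.57 and 6.51 FPKM for the other (log2 ratio -0.40). SCARNA24, with *fubp1* on chromosome 2, was at 7.37 FPKM in wild-type and 11.5 FPKM in mutant embryos (0.64). These were the only 3 scaRNA genes above 0 in both groups, and none reached 2-fold. SCARNA8 was at 0 in mutant embryos, where *haus6*, the augmin subunit gene in its span, was at 58.7 FPKM after 96.5 FPKM in wild-type. A copy of SCARNA14 was at 4.07 FPKM in wild-type and 0 in mutant embryos, and its 2 other copies were at 0. SCARNA1 (1.09 FPKM) and SCARNA13 (0.169 FPKM) were above 0 in mutant embryos alone. SCARNA11, SCARNA15, SCARNA16 and SCARNA18 were at 0 in both groups. Summed over the 13 genes, the level came to 51.0 FPKM in wild-type and 30.8 FPKM in mutant embryos, a log2 ratio of -0.73 to which SCARNA8 contributed most.

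As snoRNAs are cut from introns, the genes listed in the same span were compared with them. Of the 221 genes, 186 share a span with other genes, and 111 of these others are not short RNA genes. The table does not say whether a snoRNA lies in an intron of such a gene, so that they are candidate hosts only. They had a median mean of 45.0 FPKM and a median log2 ratio of 0.04, with a range from -1.31 to 1.61. In mutant embryos 2 were at least 2-fold higher and 1 at least 2-fold lower. Of all genes above 0 in both groups, 12.3% were at least 2-fold higher and 8.92% at least 2-fold lower. At a mean of 10 FPKM or more these shares were 2.55% and 1.5%. Among the 71 candidate hosts that were the only such gene in their span the median log2 ratio was 0.02. In 57 of 65 cases with 1 candidate host and a level in the snoRNA, the snoRNA was below it. Over all 65 cases the median level of the snoRNA was 11.0% of that of its candidate host.

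The levels and ratios of the RNA genes were set beside those of their candidate hosts. Spearman's rho across genes was 0.21 for the levels of 65 RNA genes and 0.02 for the log2 ratios of 51 RNA genes with 31 candidate hosts. RNA genes with the same host are not independent, and reads of the host that cover the snoRNA may be counted for either gene, so these values are descriptions. SNORA47 and *rps8a* lay on opposite sides, as SNORA47 was higher in mutant embryos (117 and 169 FPKM) and *rps8a* lower (179 and 150 FPKM). *rpl12* was at 729 FPKM in wild-type and 426 FPKM in mutant embryos, opposite to the higher copy of SNORA65 in its span and in the same direction as the lower one.

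Ribosomal protein genes were the largest single kind among these neighbours. Of the 86 box H/ACA genes, 29 share a span with a ribosomal protein gene and 26 of these were above 0, with a median mean of 14.3 FPKM. Of the 57 others, 43 were above 0, with a median of 6.88 FPKM. Beside ribosomal protein genes the median log2 ratio was 0.65, with 19 of 25 genes above 0, 10 at least 2-fold higher and 2 at least 2-fold lower. Elsewhere it was 0.24, with 18 of 30 above 0 and 6 past 2-fold in each direction. Of all genes above 0 in both groups, 12.3% were at least 2-fold higher and 8.92% at least 2-fold lower. At a mean of 10 FPKM or more these shares were 2.55% and 1.5%. The 2 lower genes beside ribosomal protein genes lay at that level. They were copies of SNORA65 and SNORA62, with means of 12.9 and 12.0 FPKM. Examples of the higher genes are SNORA19 with *rps13* (8.17 and 23.9 FPKM, log2 ratio 1.55) and SNORA54 with *rpl3* (17.7 and 35.4 FPKM). The 23 ribosomal protein genes of these spans had a median log2 ratio of -0.11, between -0.78 and 0.14, and none reached 2-fold. Box C/D genes in such spans were above 0 in 4 of 30 cases, all of them SNORD15.

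The genes of the proteins that the RNAs work with were compared at the RNA level, as protein was not measured. Their log2 ratios lay on both sides of 0, with 11 above and 16 below. Of 28 snoRNP gene names searched for, 26 were found (27 genes in the table), with a median log2 ratio of -0.03. None was at least 2-fold higher. The 1 that was at least 2-fold lower was *tert*, the telomerase reverse transcriptase gene, which was at 4.45 and 1.44 FPKM and whose estimate was marked as failed in the table. Of the 5 box C/D core genes, 4 were higher in mutant embryos, by log2 ratios of up to 0.41. For all genes at a mean of 10 FPKM or more, the median size of the log2 ratio, sign ignored, was 0.22. Whether the core genes differ from other genes was not tested. *fbl*, which encodes the methyltransferase fibrillarin, was at 281 FPKM in wild-type and 352 FPKM in mutant embryos (log2 ratio 0.33). *nop58* (0.31), *nop56* (0.24) and *nhp2l1a* (0.41) were similar, and *nhp2l1b* was at -0.01.

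Of the box H/ACA core genes, *nhp2* had the widest ratio, at 172 and 243 FPKM (0.49). The pseudouridine synthase gene *dkc1* (0.23) and *nop10* (0.22) were also higher in mutant embryos, and *gar1*, listed as *nola1*, was at -0.03. *nolc1*, a chaperone of snoRNPs, was at 144 and 182 FPKM (0.34). The Cajal body genes *coil* (15.4 and 15.5 FPKM) and *wrap53* (27.8 and 32.6 FPKM) bind scaRNAs or organise the body, and lay at or above their wild-type level. Among assembly factors of snoRNPs, the log2 ratios were -0.61 and -0.67 for the RPAP3 genes, -0.47 for *pih1d1*, -0.33 for *ZNHIT6*, -0.23 for *ruvbl1* and -0.20 for *ruvbl2*. They were nearer 0 for *NUFIP1* (-0.08), *shq1* (-0.07), *naf1* (-0.01) and *ZNHIT3* (0.04). Across the 18 genes outside the cores the median was -0.12, with 4 above 0.

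**Figure D4:**
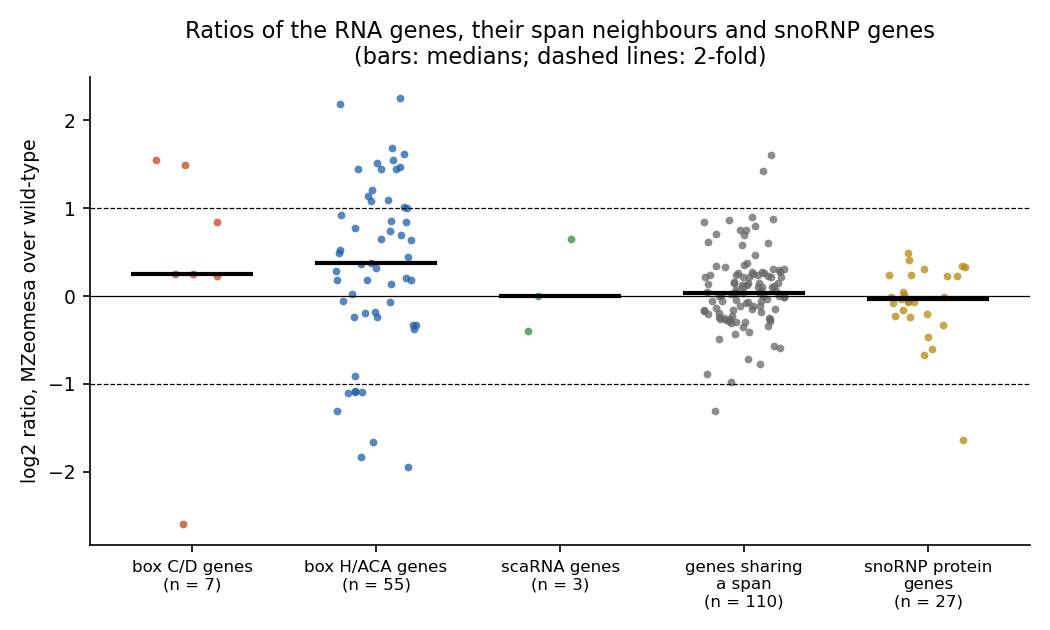
The log2 ratio of MZ*eomesa* over wild-type for box C/D, box H/ACA and scaRNA genes above 0 in both groups, for the genes that share a span with them and for snoRNP protein genes, 1 point per gene, with bars at the medians and dashed lines at 2-fold. The box H/ACA points spread from -1.95 to 2.25 around a median of 0.38, whereas the snoRNP protein genes gather around a median of -0.03.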

How the data were processed

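The authors mapped single reads of poly(A) RNA from sphere stage embryos with TopHat2 2.0.5 and estimated expression with Cufflinks, with its option (-u) for multiply mapped reads, which are divided among their places. The Cufflinks version and the strandedness of the libraries were not given in the sources used here. The deposited table holds 1 FPKM value per gene and group, with both samples combined. Its columns of fold changes, test statistics, p-values and q-values hold the authors' own comparison and were not used. Scaffold names are those of Zv9. Starts in the table count from 0 (89 of 115 odorant receptor genes alone in their span then have lengths that are multiples of 3) and are printed from 1.

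The log2 ratio of MZ*eomesa* over wild-type was computed without a pseudocount for genes above 0 in both groups. With 1 value per group no test was made, and a gene counted as higher or lower at 2-fold or more. A span is the position given for a gene, which overlapping genes share. The genes named were the 10 with the highest mean FPKM in each box class (all 8 for box C/D), every scaRNA, the 5 largest ratios in each direction at 1 FPKM or more in both groups, genes at 0 in a single group and at 10 FPKM or more in the other, their copies and span neighbours, and snoRNP genes. Others (such as SNORA73 and SNORA3) were chosen after their values were seen. A few span neighbours that the rule names are not reported here. The members and lists were chosen with earlier results of these data known. Alternatives were minimum levels, pseudocounts, centring, other folds, status, averaged copies and span limits. The counting was tested on simulated data. Scripts ran in Python 3.11.15 with pandas 2.3.3, numpy 2.4.6, matplotlib 3.10.9 and scipy 1.17.1.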

Additional observations from a re-analysis of the deposited data

How the results depend on the processing

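No paired analysis was possible because the table holds 1 combined value per group, and for the same reason no replicate could be left out. Of 65 alternatives, 47 moved a result by no more than its tolerance (1.5 times for a count past a fold or a ratio, 0.1 for a median log2 ratio, the exact binomial interval for the count above 0). Some of the 47 could not have moved a result. Centring shifted each log2 ratio by 0.03, less than the tolerance. For box C/D and scaRNA genes, the minimum of 1 FPKM and the status limit kept the same genes. The 47 is therefore not a measure of how firm the results are. The count of genes at least 2-fold higher in MZ*eomesa* embryos was 18. It was 11 at a mean of 10 FPKM or more, 8 with copies averaged per name, 28 at 1.5-fold and 2 at 4-fold. The shares of all genes past 1.5-fold and past 4-fold were not computed, so those counts have no background. The count of genes at least 2-fold lower was 9, and in the same order 4, 3, 10 at 1.5-fold and 1 at 4-fold, the last 2 again without a background. For box H/ACA genes at a mean of 10 FPKM or more, an alternative chosen after seeing the data, the counts were 10 higher and 4 lower. Of all genes at that level, 2.55% were at least 2-fold higher and 1.5% at least 2-fold lower. With copies averaged per name the median log2 ratio was 0.55 for box C/D (0.25 over genes), 0.49 for box H/ACA (0.38 over genes) and 0.24 for scaRNA genes, which reversed the sign of -0.0028 over genes. Above 0 in both groups were 65 genes in place of 84 in at least one. The ratio of the box C/D to the box H/ACA median level (6.02) was 0 with genes at 0 included. It was 13.4 with copies averaged and 2.98 by geometric means. For spans of up to 300 bases, where SNORD22 was the only box C/D gene above 0, it was 61.6. Without SNORD15, an alternative chosen after seeing the data, it was 19.2. The causes were not tested. Depth was unknown, so the precision of low levels, and of any 0, could not be given.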

Other observations

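Several snoRNA genes carry names outside the rule used above. Of 30 genes with names starting with sno or snR, 9 were above 0. The highest were 3 copies of snoU6-53, at 245, 313 and 399 FPKM in wild-type and, in the same order, 186, 96.3 and 0 FPKM in MZ*eomesa* embryos. All 3 copies were thus lower in mutant embryos, whereas 44 of the 65 snoRNA and scaRNA genes with a ratio were higher. snoU6-77 was at 29.99 and 59.8 FPKM, and the higher copy of snoU85, a scaRNA of Cajal bodies, at 30.1 and 42.0 FPKM.

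Genes of other short RNAs were also listed unevenly. Of 51 U3 genes, the box C/D snoRNA that acts in cleavage of the ribosomal RNA precursor, 31 were above 0, at no more than 1.57 FPKM, and 1 of 8 U8 genes was above 0. Among spliceosomal RNA genes, 284 of 382 U1 genes but 114 of 706 U6 genes were above 0. Of 1964 5S ribosomal RNA genes, 97 were above 0, and the highest values were 1366 FPKM in wild-type and 1763 FPKM in mutant embryos. Of 319 microRNA genes, 18 were above 0.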
